A study of Mus musculus with 16 samples.

Results

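Azurophil granule genes and the granulocytic regulators that accompany them were followed in cultured mouse DC progenitors. The genes are Mpo, Elane, Prtn3 and Ctsg, which encode enzymes of the azurophil (primary) granule, Ms4a3, which encodes a membrane protein of granulocyte-monocyte progenitors, and Cebpa, Cebpe and Gfi1, which encode transcription factors of the granulocytic lineage. They were chosen by name, with earlier results of these data known. Each was read from the only probe set that maps to its symbol alone, so that 8 of the 19938 genes measured are described. The transcriptomes came from 16 Affymetrix Mouse Gene ST arrays, 2 in each of 8 groups. IkL/L mice carry a hypomorphic Ikzf1 allele and make little functional Ikaros, and WT mice were their controls. MDPs (monocyte and DC progenitors, sorted as CD117hi CD115+ cells) or CDPs (common DC progenitors, sorted as CD117lo CD115+ cells) were taken from CD45.2+ bone marrow. They were cultured for 24 h with Flt3L and CD45.1+ WT bone marrow cells, either with GSI (the γ-secretase inhibitor Compound E, at 5 µM) or with its vehicle DMSO, and the CD45.2+ cells were then sorted again. The groups are thus IkL/L CDPs with GSI or DMSO, WT CDPs with GSI or DMSO, IkL/L MDPs with GSI or DMSO, and WT MDPs with GSI or DMSO. A stage name therefore says which progenitor was put into culture, and not what its progeny had become at harvest. The labels give neither the age nor the sex of the mice.

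Neutrophils are built in steps. At the promyelocyte stage the azurophil granules are filled with myeloperoxidase and with the serine proteases neutrophil elastase, proteinase 3 and cathepsin G, and the genes for these proteins are shut off before the later, specific granules are made. C/EBPα acts early and opens the granulocytic program together with PU.1, Gfi1 represses the alternative monocytic program, and C/EBPε drives the later steps, including the genes of the specific granules. In the DC lineage MDPs still have monocyte potential, whereas CDPs are committed to DCs.

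The sequences just upstream of the 4 enzyme genes are shown because these genes, with Ms4a3, had the largest stage differences among the 8. They are the 250 bases before the RefSeq start site in build GRCm38.p6, written 5′ to 3′ on the strand of the gene, and the capitals mark GAGGAA, the core of a PU.1 site. Mpo lies on the plus strand (chr11:87793534-87793783), as do Elane (chr10:79886062-79886311) and Prtn3 (chr10:79879417-79879666), whereas Ctsg lies on the minus strand (chr14:56102575-56102824).
Mpo: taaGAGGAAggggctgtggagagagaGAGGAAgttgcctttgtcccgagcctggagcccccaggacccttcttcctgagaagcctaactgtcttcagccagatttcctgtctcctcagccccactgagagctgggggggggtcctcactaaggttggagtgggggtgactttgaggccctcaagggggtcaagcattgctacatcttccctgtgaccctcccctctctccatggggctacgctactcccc
Elane: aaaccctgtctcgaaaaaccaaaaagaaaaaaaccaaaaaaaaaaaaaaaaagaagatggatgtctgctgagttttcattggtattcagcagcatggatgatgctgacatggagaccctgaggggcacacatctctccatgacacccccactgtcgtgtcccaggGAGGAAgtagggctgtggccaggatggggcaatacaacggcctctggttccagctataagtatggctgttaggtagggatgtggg
Prtn3: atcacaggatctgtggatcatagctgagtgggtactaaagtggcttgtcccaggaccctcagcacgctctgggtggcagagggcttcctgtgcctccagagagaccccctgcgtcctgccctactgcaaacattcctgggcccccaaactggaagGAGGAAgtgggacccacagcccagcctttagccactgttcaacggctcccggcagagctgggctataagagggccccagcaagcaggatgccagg
Ctsg: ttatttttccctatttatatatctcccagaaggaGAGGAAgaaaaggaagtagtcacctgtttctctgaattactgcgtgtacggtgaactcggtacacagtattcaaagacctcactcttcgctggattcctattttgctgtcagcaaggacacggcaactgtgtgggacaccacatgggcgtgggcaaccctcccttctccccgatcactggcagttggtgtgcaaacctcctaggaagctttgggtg
Of the 8 genes, 7 had a promoter in the RefSeq table, Gfi1 with 2 start sites. GAGGAA, searched on both strands in 250 bases before and 50 bases after the start, was found in the promoters of all 4 enzyme genes and of Ms4a3, and in none of Cebpa or Gfi1. It was found in 28.3% of all 32851 promoters of that length. The C/EBP core TTNNGNAA was in none of the 4 enzyme gene promoters, had 2 matches in that of Ms4a3 and 1 in that of Gfi1, and was in 40.7% of all promoters. The GFI1 core AAATCA was in none of the members' promoters and in 14% of all. These are matches of letters and not measured sites.

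The deposited values are log2 signals, so a difference of 1 stands for a 2-fold change. Array medians lay between 4.52 and 4.65, and the arrays of a group correlated with r between 0.983 and 0.996 over all genes. Ikzf1 itself was lower in IkL/L than in WT cells when averaged over stages and treatments (log2 difference -0.40, standard error 0.07, adjusted p = 0.00666). It read 8.36 to 8.94 on the IkL/L arrays, against 8.90 to 9.20 on the WT arrays, so that the ranges just overlapped. The study used 2 mice per condition, but the labels do not say which arrays share a mouse, and all p-values measure the spread between these arrays. The fit takes the 16 arrays as independent. Where cultures came from the same mouse, the averaged comparisons rest on fewer mice than arrays. Lists of B cell, T and NK cell, and erythroid and megakaryocyte genes had array means of 3.66 to 5.11, with the T and NK list below the array medians (3.66 to 4.10). Single genes of these lists were brighter, with means over all arrays of 7.55 for Cd79b, 6.01 for Vpreb1 and 5.75 for Pf4. Pf4 was higher in IkL/L cells by 1.39 on average, not past the test (adjusted p = 0.0857). Cells of other types present in different numbers and different amounts of RNA per cell cannot be told apart in such bulk samples.

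Of the 16 arrays, 1 stood apart in the enzyme genes and Ms4a3. Array 2 of the vehicle-treated WT CDPs read 11.67 for Mpo, 9.60 for Elane, 10.08 for Prtn3, 10.69 for Ctsg and 9.42 for Ms4a3. Array 1 of the same group read 7.85, 6.14, 6.82, 7.37 and 5.34 for the same genes in the same order. The gap of Ms4a3 between these arrays, 4.09, was the largest of all 19938 genes. Mpo had rank 2, Elane rank 4, Ctsg rank 6 and Prtn3 rank 7, while 99% of genes differed by less than 1.20. Cebpa, Cebpe and Gfi1 differed by 0.24, 0.40 and 0.05. Rank 3 was held by the Y-linked gene Eif2s3y, named here after its values were seen, which read 3.16 on array 2 against 6.90 on array 1. Eif2s3y was likewise low, at 3.06 to 3.52, on all 4 second arrays of the WT groups and on 1 IkL/L array (MDPs with GSI, array 2), against 5.89 to 7.04 on the other 11. Of these 5 arrays, 2 were of CDPs, and Mpo read 11.67 on vehicle WT CDP array 2 and 7.28 on array 2 of the WT CDPs with GSI. The part of mouse or sex in these values was not tested.

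**Figure D1:**
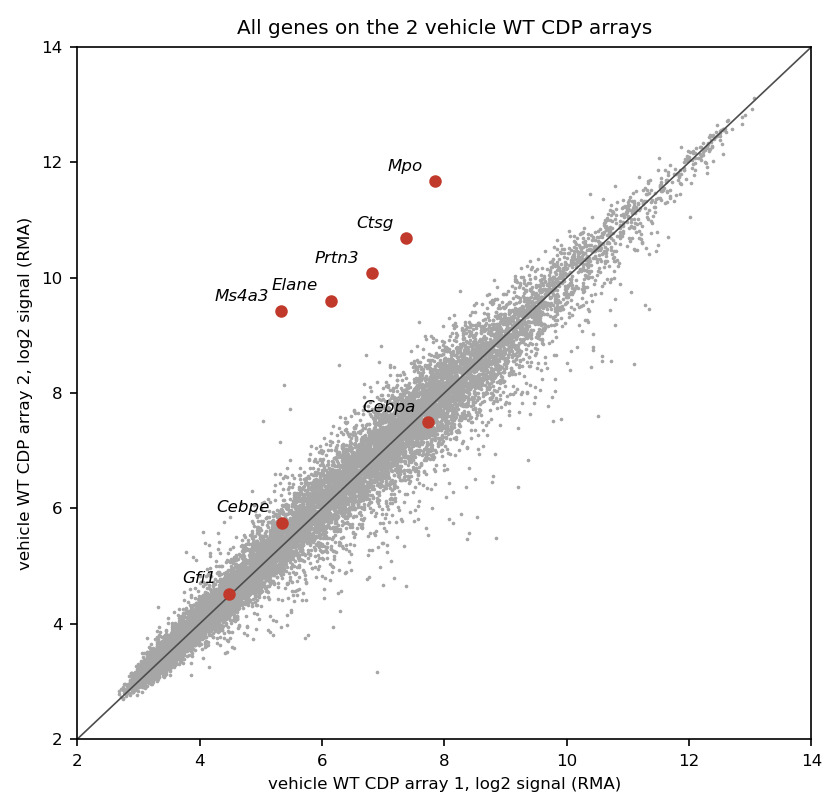
Log2 signal of every gene on array 2 (vertical axis) against array 1 (horizontal axis) of the vehicle-treated WT CDPs, with the 8 genes in red and the line of equal signal. Ms4a3, Mpo, Elane, Ctsg and Prtn3 lie 3.26 to 4.09 above array 1, whereas Cebpa, Cebpe and Gfi1 lie within 0.40 of the line.

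The position of this array was also read from other genes. When it was left out, 857 other genes were called lower and 987 higher in CDPs than in MDPs. On array 2 of the vehicle-treated WT CDPs 68.1% of the first and 63.1% of the second set lay nearer to the mean of the MDP arrays than to that of the remaining CDP arrays. Measured against WT arrays alone the shares were 58.5% and 41.5%. Its median over the genes lower in CDPs was 7.34, against 6.73 to 7.14 on the other CDP arrays and 7.39 to 7.60 on the MDP arrays. Its median over the genes higher in CDPs was 6.61, against 6.67 to 7.50 on the other CDP arrays and 5.83 to 6.54 on the MDP arrays, and the nearest CDP array (WT with GSI, array 1) differed from it little. Whether this library holds MDP-like cells was not tested. Results that rest on it are therefore given with and without it. Where 1 array of a group is left out, the remaining array is assumed to vary as the other groups do.

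CDPs had far less azurophil enzyme RNA than MDPs. Averaged over genotypes and treatments, Elane was 22-fold, Mpo 18.0-fold, Ctsg 11.7-fold and Prtn3 9.12-fold lower in CDPs, and Ms4a3 was 14.7-fold lower. Cebpa was also lower, by 1.21-fold, and Cebpe and Gfi1 did not pass the test. In total 6 of 8 genes were called at an adjusted p under 0.05, against 8.74% of all genes. The median difference of the 8, CDP minus MDP, was -3.37, against -0.02 over all genes.

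Mpo, the gene of myeloperoxidase, read 6.60 and 6.56 in IkL/L CDPs with GSI, 7.78 and 7.18 in IkL/L CDPs with DMSO, 8.17 and 7.28 in WT CDPs with GSI, and 7.85 and 11.67 in WT CDPs with DMSO. In MDPs it read 12.31 and 11.37 (IkL/L, GSI), 12.26 and 11.99 (IkL/L, DMSO), 12.08 and 11.98 (WT, GSI), and 12.21 and 12.25 (WT, DMSO). Vehicle WT CDP array 2 fell among the MDP arrays, and all other CDP arrays lay more than 3 log2 units below the lowest MDP array. The averaged difference, CDP minus MDP, was -4.17 (standard error 0.45, adjusted p = 3.47e-04).

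Elane, which encodes neutrophil elastase, read 5.62 and 5.62 in IkL/L CDPs with GSI, 5.65 and 5.48 in IkL/L CDPs with DMSO, 6.38 and 5.20 in WT CDPs with GSI, and 6.14 and 9.60 in WT CDPs with DMSO. Its MDP values were 11.24 and 10.26 (IkL/L, GSI), 11.29 and 10.22 (IkL/L, DMSO), 10.65 and 10.38 (WT, GSI), and 10.78 and 10.53 (WT, DMSO). The 2 stages did not overlap, and even the high WT CDP array stayed below every MDP array. The share of all genes whose stages separate in this way is not given, so it describes Elane only. The averaged difference of -4.46 (standard error 0.44, adjusted p = 2e-04) was the largest of the 8.

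Prtn3, the gene of proteinase 3, read 6.79 and 6.53 in IkL/L CDPs with GSI, 7.08 and 6.71 in IkL/L CDPs with DMSO, 7.17 and 7.97 in WT CDPs with GSI, and 6.82 and 10.08 in WT CDPs with DMSO. In MDPs its range was 10.14 to 10.89. Without vehicle WT CDP array 2 the stages were more than 2 log2 units apart on every array. The averaged difference was -3.19 (standard error 0.39, adjusted p = 7.78e-04).

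Ctsg, which encodes cathepsin G, read 6.86 and 6.16 in IkL/L CDPs with GSI, 7.48 and 6.87 in IkL/L CDPs with DMSO, 7.75 and 7.77 in WT CDPs with GSI, and 7.37 and 10.69 in WT CDPs with DMSO. Its MDP range was 10.67 to 11.34, and vehicle WT CDP array 2 just overlapped it. The averaged difference was -3.55 (standard error 0.39, adjusted p = 3.68e-04).

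Ms4a3 marks the progenitors that give rise to granulocytes and monocytes. It read 6.88 and 5.69 in IkL/L CDPs with GSI, 7.37 and 5.53 in IkL/L CDPs with DMSO, 6.30 and 4.88 in WT CDPs with GSI, and 5.34 and 9.42 in WT CDPs with DMSO. In MDPs it lay between 9.86 and 10.82, above all CDP arrays. Its arrays differed within every CDP group by more than 1 log2 unit, and its averaged difference of -3.87 had the largest standard error, 0.54 (adjusted p = 0.00159). For the separation of stages by Mpo, Prtn3 and Ms4a3, too, the share of all genes that do the same is not given.

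**Figure D2:**
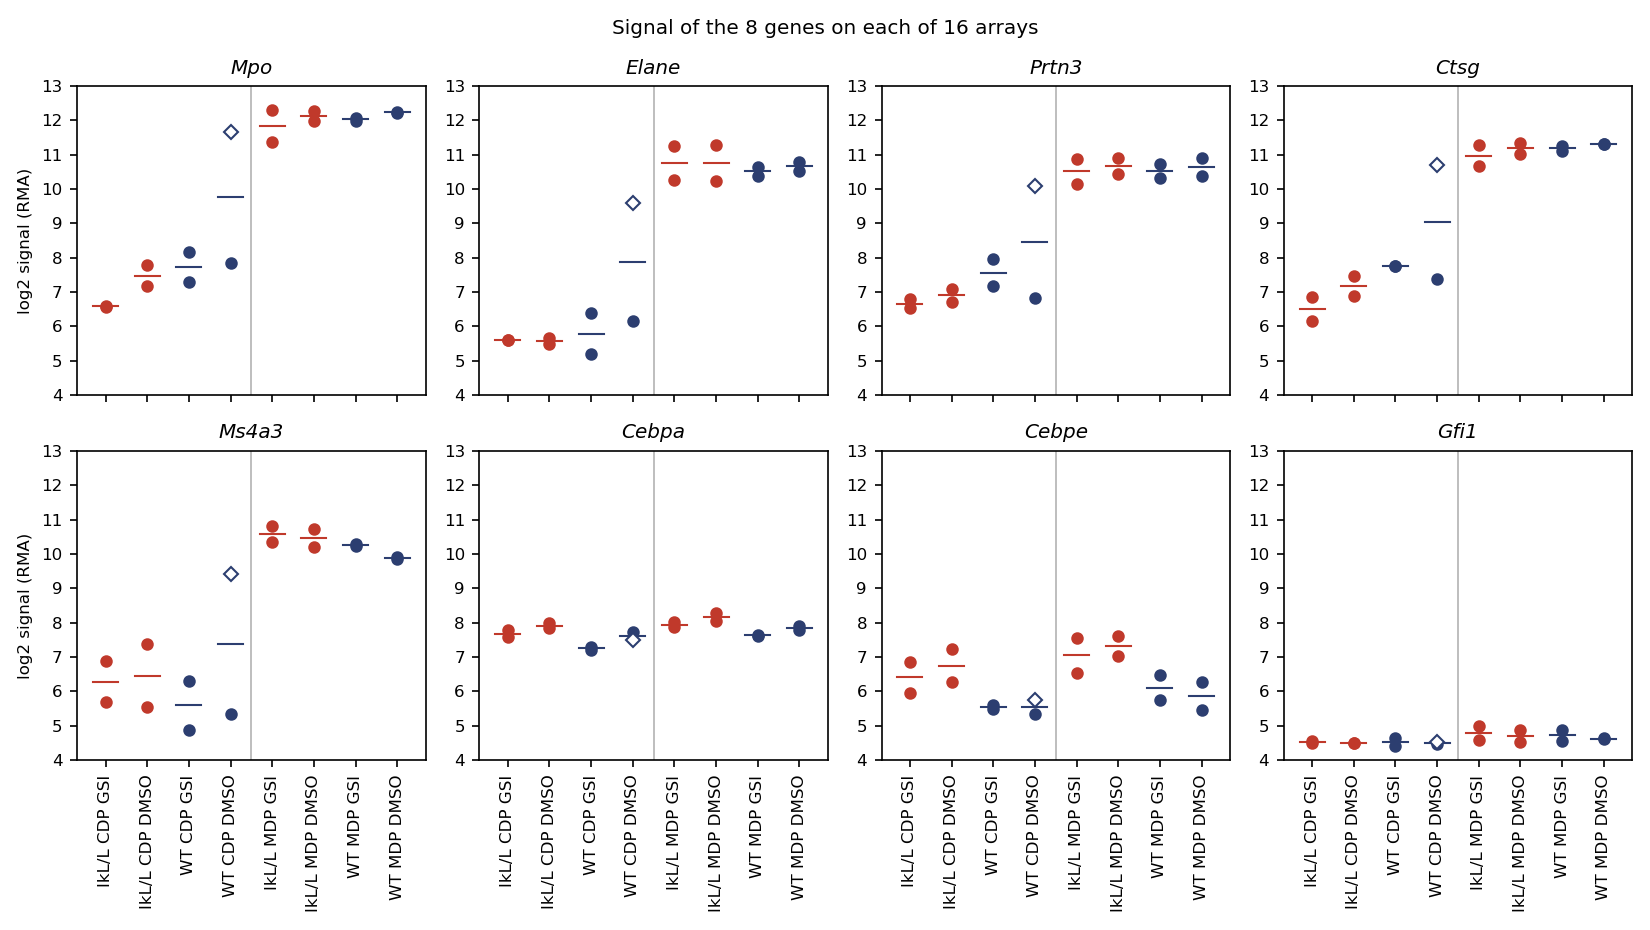
Log2 signal (vertical axis) of each gene on each array, with groups along the horizontal axis (CDPs left of the grey line, MDPs right of it), IkL/L in red, WT in blue, bars at group means and an open diamond for vehicle WT CDP array 2. Without that array the 4 enzyme genes and Ms4a3 separate the stages, on it Mpo and Ctsg reach the MDP range, Cebpe separates the genotypes in CDPs, and Gfi1 stays between 4.42 and 5.00.

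Without vehicle WT CDP array 2 the same 6 genes were called (9.28% of all genes), with larger averaged differences of -4.65 for Mpo, -4.89 for Elane, -3.60 for Prtn3, -3.96 for Ctsg and -4.39 for Ms4a3. Within single strata the calls were less stable. In IkL/L cells all 4 enzyme genes were lower in CDPs both with GSI (2.42% of all genes called) and with DMSO (1.71%). In WT cells no member was called with all arrays, either with GSI (0.176% of all genes) or with DMSO (0.0953%). At an unadjusted p under 0.05 in limma there were 6 and 5 of the 8, a laxer threshold than that of the percentages. Without the array, 5 genes were called in WT cells with GSI (0.306%) and 4 with DMSO (0.221%), and 5 each in IkL/L cells with GSI (2.47%) and DMSO (2.07%). The fifth gene was Ms4a3 each time. In the 3 strata that do not hold this array the differences themselves did not move, only the spread that all groups share, and leaving out array 1 in its place gave the same 5 genes and the same percentages of all genes there. In WT cells with DMSO the differences without array 2 were -4.39 for Mpo, -4.52 for Elane, -3.82 for Prtn3 and -3.93 for Ctsg, where a single array stood for the CDPs. Without array 1 they were -0.56 for Mpo, -1.05 for Elane, -0.55 for Prtn3 and -0.62 for Ctsg, and no member was called (0.0150% of all genes, with 1 member at an unadjusted p under 0.05 in limma). When 1 array of the groups compared was left out, the IkL/L calls were mostly lost with GSI and all lost with DMSO. Fewer were lost when an array of another group was left out. For most of these fits the share of all genes called is not given. Whether the loss is particular to these genes was therefore not tested.

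Cebpa, the master regulator of early granulopoiesis, differed little between stages. It read 7.78 and 7.58 in IkL/L CDPs with GSI, 7.98 and 7.85 in IkL/L CDPs with DMSO, 7.30 and 7.21 in WT CDPs with GSI, and 7.73 and 7.49 in WT CDPs with DMSO. In MDPs it read 8.02 and 7.86 (IkL/L, GSI), 8.27 and 8.05 (IkL/L, DMSO), 7.62 and 7.65 (WT, GSI), and 7.78 and 7.92 (WT, DMSO). The averaged stage difference of -0.28 (standard error 0.06, adjusted p = 0.0137) was small, and the CDP and MDP arrays overlapped. With an intensity trend in the variance prior it missed the threshold (adjusted p = 0.0538).

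The genes that share granules or progenitors with the 8 did not all follow them between stages, where 8.74% of all genes were called. Of 11 other primary granule genes, none was called (Lyz2, lysozyme, -0.09, adjusted p = 0.679, and Srgn, the granule proteoglycan serglycin, -0.19, adjusted p = 0.231), and their median was -0.19, against -0.02 over all genes. All 11 values were negative. Of 10 other genes of granulocyte-primed progenitors, 4 were lower in CDPs and none higher, with a median of -0.94: Nkg7 (-2.33, adjusted p = 0.0036), Fcnb, the gene of ficolin B (-1.63, adjusted p = 0.00281), Rgcc (-0.74, adjusted p = 0.00547) and Plac8 (-0.64, adjusted p = 0.0252). Of 17 other myeloid regulators and receptors, 2 were lower and 3 higher in CDPs. Myb, the progenitor factor, was lower (-1.73, adjusted p = 0.00602), as was Irf8 (-0.55, adjusted p = 0.0198), which steers progenitors to monocytes and DCs. Egr2 (1.65, adjusted p = 2.33e-04), Egr1 (0.73, adjusted p = 0.0396) and Id2 (1.30, adjusted p = 0.00192) were higher. None of the 4 genes of GFI1 corepressors was called.

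Several DC genes were higher in CDPs, in the same stage comparison with 8.74% of all genes called. Of 8 DC progenitor genes, Flt3, the receptor of the culture's cytokine (1.91, adjusted p = 5.78e-04), Tcf4, the pDC factor (1.17, adjusted p = 0.00128), and Id2 were higher in CDPs, and Irf8 was lower. Kit, whose protein separates the gates, was not called (-0.83, adjusted p = 0.182), and neither was Csf1r (0.32, adjusted p = 0.156). The stage difference of Kit in IkL/L cells stood 1.42 above that in WT cells, not past the test (adjusted p = 0.806). Among 8 monocyte genes F13a1 was lower (-1.58, adjusted p = 0.00715) and Ly86 higher (0.45, adjusted p = 0.0046). Of 16 late neutrophil genes, Retnlg (2.06, adjusted p = 0.0291) and Mmp9 (1.30, adjusted p = 0.0279) were higher in CDPs when averaged over genotypes. Their stage difference in IkL/L cells stood above that in WT cells, by 2.28 for Mmp9 and 1.49 for Retnlg. Neither of these terms passed the test (adjusted p = 0.263 and 0.993), so the averages need not hold alike in both genotypes. Prg2 of the eosinophil list was lower (-1.77, adjusted p = 0.023), and Cd8a of the T and NK list was higher (0.50, adjusted p = 0.00715). Of 16 fits that each left out 1 array, the stage call was lost in 12 for Egr1, 10 for Mmp9, 8 for Retnlg, 6 for Plac8, 5 for Irf8 and 5 for Prg2.

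Cebpe and Cebpa were the members called for genotype, and Cebpa was also called for stage. Averaged over stages and treatments, Cebpe was 2.16-fold and Cebpa 1.26-fold higher in IkL/L than in WT cells, and no member was lower. These 2 of 8 compare with 6% of all genes called. The 4 enzyme genes had negative differences, none past the test, and Gfi1 was at 0.04 (adjusted p = 0.865).

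Cebpe, the factor of the late granulocytic steps, read 6.85 and 5.96 in IkL/L CDPs with GSI and 7.24 and 6.26 with DMSO, against 5.48 and 5.61 in WT CDPs with GSI and 5.35 and 5.75 with DMSO. In MDPs it read 7.56 and 6.54 (IkL/L, GSI) and 7.60 and 7.04 (IkL/L, DMSO), against 6.46 and 5.75 (WT, GSI) and 6.26 and 5.46 (WT, DMSO). The genotypes did not overlap within either stage. The lowest IkL/L CDP array lay above the highest WT CDP array, and the lowest IkL/L MDP array above the highest WT MDP array. The share of all genes with such a separation is not given, so it describes Cebpe only. The averaged difference was 1.11 (standard error 0.23, adjusted p = 0.019). Within the strata it was 0.86 and 1.20 in CDPs with GSI and DMSO, and 0.94 and 1.45 in MDPs with GSI and DMSO. The call was lost by a small margin when IkL/L MDP array 1 with DMSO was left out (1.04, adjusted p = 0.0533), and it held for each of the other 15 arrays.

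Cebpa was higher by 0.34 on average (standard error 0.06, adjusted p = 0.00683), with stratum values of 0.42 and 0.31 in CDPs with GSI and DMSO, and 0.31 in MDPs under both treatments. In each of the 4 strata both IkL/L arrays lay above both WT arrays, and how many of all genes do the same is not given. Without vehicle WT CDP array 2 both factors were still called (4.74% of all genes), Cebpe at 1.16 (adjusted p = 0.0326) and Cebpa at 0.31 (adjusted p = 0.017). No member was called in a single stratum, that is in CDPs with GSI (2.15% of all genes), CDPs with DMSO (1.18%), MDPs with GSI (0.115%) or MDPs with DMSO (0.105%). The number of members with an unadjusted p under 0.05 in limma was 1, 5, 1 and 2. These counts cannot be set against the percentages, which are at an adjusted p under 0.05.

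For the granule enzymes the genotype comparison in vehicle-treated CDPs hinged on the array that stood apart. With all arrays the difference, IkL/L minus WT, was -2.28 for Mpo (95% interval -4.28 to -0.28, adjusted p = 0.425), -2.31 for Elane (-4.24 to -0.38, adjusted p = 0.38), -1.85 for Ctsg (adjusted p = 0.475), -1.55 for Prtn3 (adjusted p = 0.613) and -0.93 for Ms4a3 (adjusted p = 0.932). Without array 2 it shrank to -0.37 for Mpo and -0.58 for Elane, and Prtn3 (0.08) and Ms4a3 (1.11) changed sign, with none of the 8 called (0.441% of all genes, and 1 member at an unadjusted p under 0.05 in limma). Without array 1 in its place, Mpo (-4.19), Elane (-4.04), Ctsg (-3.51) and Prtn3 (-3.18) were all called (1.39% of all genes, adjusted p between 0.00206 and 0.00856). Leaving out array 1 likewise brought the averaged genotype comparison to 6 called members (6.24% of all genes), with the 4 enzymes lower. The result thus depended on which of the 2 WT arrays was kept, and the labels do not tell which of them is typical.

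With GSI, where both WT CDP arrays were low, the 4 enzyme genes were again below WT in IkL/L CDPs, at -1.14 (Mpo), -0.17 (Elane), -0.91 (Prtn3) and -1.25 (Ctsg), none past the test. Both IkL/L arrays lay below both WT arrays for Mpo, Prtn3 and Ctsg, but not for Elane. This order carries no test, since the smallest exact permutation p of 2 arrays against 2 is 0.333. The share of all genes that split in this way is not given. Ms4a3 was at 0.69 (adjusted p = 0.98). In MDPs the enzyme differences lay between -0.22 and 0.24 with either treatment. How far the effect of genotype in CDPs departed from that in MDPs was tested as 1 term averaged over treatments, at -1.56 for Mpo (standard error 0.90, adjusted p = 0.938). For this term no member was called (0.562% of all genes, and no member had an unadjusted p under 0.05 in limma). Without array 1 of the vehicle WT CDPs 3 members were called for this difference of effects (0.732% of all genes), namely Mpo, Prtn3 and Ctsg.

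**Figure D3:**
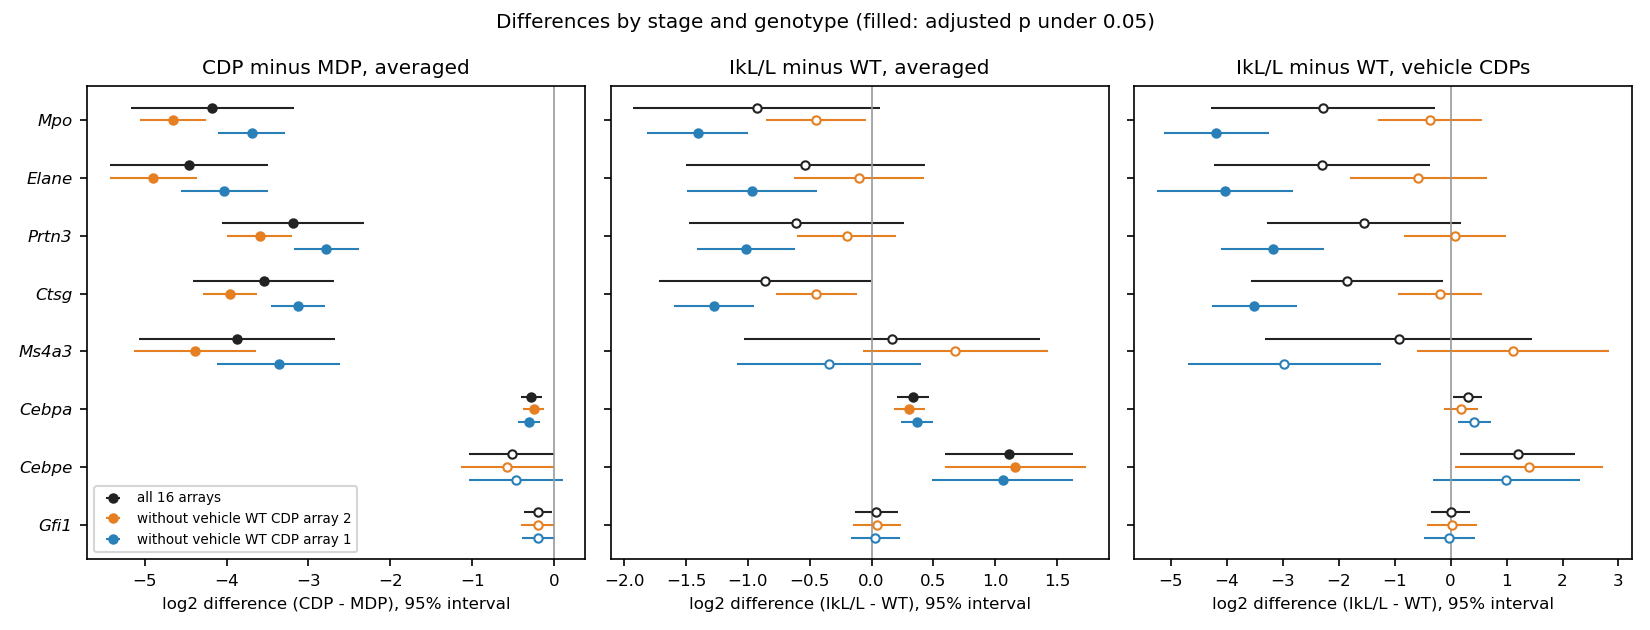
Log2 differences with 95% intervals (horizontal axis) of the 8 genes (vertical axis) for stage and genotype, averaged, and for genotype in vehicle-treated CDPs, with all arrays (black), without vehicle WT CDP array 2 (orange) and without array 1 (blue) and filled points have an adjusted p under 0.05. The stage differences of the enzyme genes stay between -2.78 and -4.89 under all settings shown, whereas their genotype differences in vehicle-treated CDPs move between -4.19 and 0.08.

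The late neutrophil genes, downstream in the same lineage, were higher in IkL/L cells, as Cebpe was. For genotype, averaged, 6% of all genes were called. Of 16 such genes 13 were higher in IkL/L cells and none lower, with a median of 1.54 against -0.02 over all genes, led by Ltf, the gene of lactoferrin (3.87, adjusted p = 2.93e-05), Camp, the gene of cathelicidin (3.72, adjusted p = 9.79e-06), and Ngp (2.56, adjusted p = 1.67e-04). Their mean over the list ran from 8.24 to 9.82 on IkL/L arrays, against 6.82 to 7.52 on WT arrays, and it was 7.33 on vehicle WT CDP array 2. Of the other primary granule genes only Serpinb1a, which encodes an inhibitor of elastase and its relatives, was higher in IkL/L cells (1.52, adjusted p = 0.00348). Among the primed progenitor genes only Fcnb (2.47, adjusted p = 3.02e-04), and among the regulators only Egr2 (1.33, adjusted p = 0.00112), were called, both higher.

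**Figure D4:**
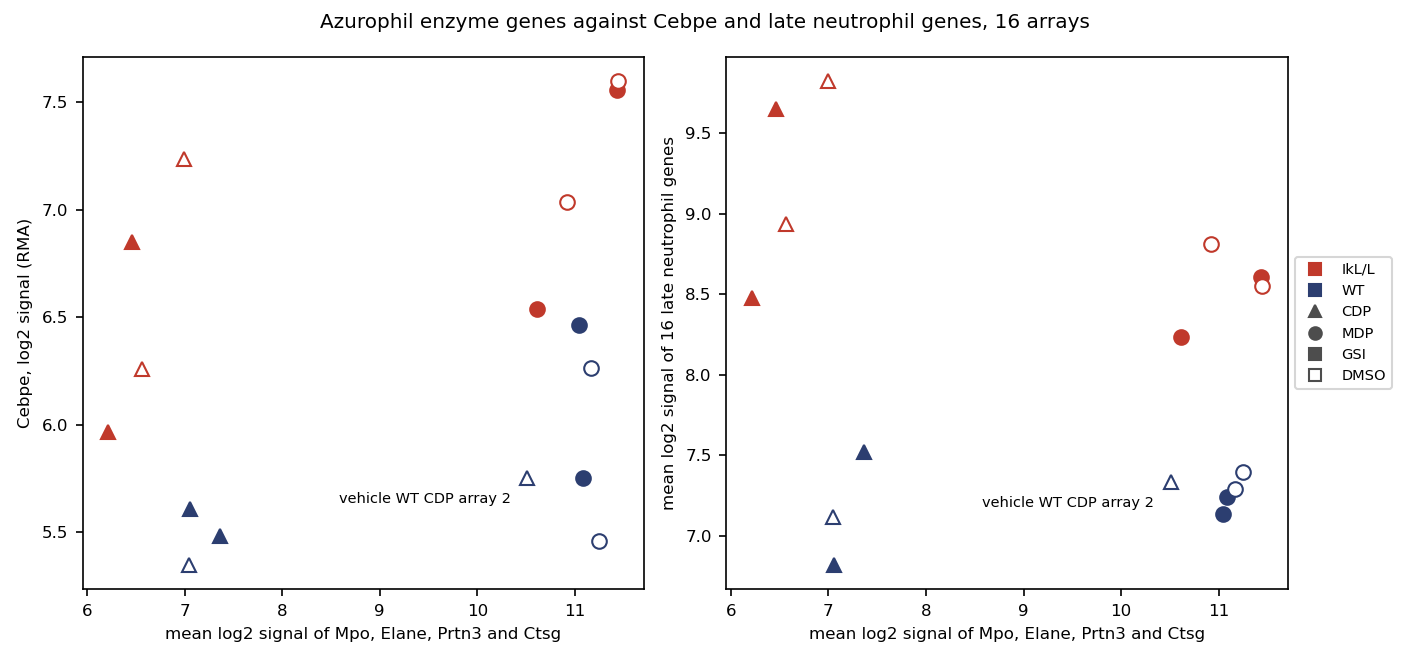
Cebpe (left, log2 signal) and the mean log2 signal of 16 late neutrophil genes (right) against the mean log2 signal of Mpo, Elane, Prtn3 and Ctsg on each of 16 arrays, with IkL/L in red, WT in blue, triangles for CDPs, circles for MDPs, filled for GSI and open for DMSO. On the horizontal axis all CDPs lie below the lowest MDP array (10.6), with vehicle WT CDP array 2 close to it at 10.5, and the late neutrophil mean separates IkL/L (8.24 or more) from WT (7.52 or less).

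Some genes of other granulocytes were called for genotype, for which 6% of all genes were called. Of 10 basophil and mast cell genes 3 were higher in IkL/L cells, Mcpt8 (2.57, adjusted p = 0.00184), Prss34 (2.28, adjusted p = 0.0107) and Hdc (1.10, adjusted p = 0.0332), and the mean of the list was 4.87 to 6.19 on IkL/L arrays against 4.41 to 5.27 on WT arrays. Of 5 measured eosinophil genes Prg2 was higher (1.92, adjusted p = 0.0209), and the mean of the list was 4.84 to 7.35 against 4.15 to 5.15. Cd14 of the monocyte list (1.32, adjusted p = 0.0456), Retnlg (2.14, adjusted p = 0.0312) and Procr of the stem cell list (0.61, adjusted p = 0.0234) were also higher. Of 16 fits that each left out 1 array, the call was lost in 12 for Hdc, 12 for Cd14, 9 for Retnlg, 5 for Procr and 3 for Prg2. What part such cells have in the higher Cebpe and Cebpa was not tested.

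Gfi1, the repressor that limits monocytic genes in granulocyte precursors, read between 4.42 and 5.00 on all 16 arrays, near the array medians. Its group means ran from 4.49 in IkL/L CDPs with DMSO to 4.79 in IkL/L MDPs with GSI, and each group overlapped the next in that order. It was called in no comparison (stage, averaged: -0.20, adjusted p = 0.179). Its mean signal of 4.61 was at percentile 47.7 of all genes. Array means were 4.56 to 5.11 for the B cell list and 4.08 to 4.73 for the erythroid and megakaryocyte list, with the T and NK list lower.

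No member was called for GSI in the fit of group means. Averaged over the 4 cell populations no member was called (0.306% of all genes), and only Cebpa had an unadjusted p under 0.05 in limma (-0.26, 95% interval -0.38 to -0.13, adjusted p = 0.111). Cebpa was lower with GSI in each of the 4 populations by group mean, at 7.68 against 7.92 in IkL/L CDPs, 7.26 against 7.61 in WT CDPs, 7.94 against 8.16 in IkL/L MDPs and 7.63 against 7.85 in WT MDPs. Between arrays of the same number Cebpa was lower with GSI in 8 of 8 pairs, by log2 differences of -0.43 to -0.17. This count was made for Cebpa alone and has no share of all genes beside it. The labels do not tie the numbers to a mouse, so it is a description and not a test. The value for Mpo was -0.86 (95% interval -1.85 to 0.14), and for Elane -0.54 (-1.51 to 0.42). These intervals leave room for changes of 2-fold and more. Without vehicle WT CDP array 2 the values were -0.38 for Mpo and -0.11 for Elane, and again no member was called (0.371% of all genes, and 1 member at an unadjusted p under 0.05 in limma). Without array 1 Mpo (-1.33) and Ctsg (-0.98) were called lower (0.226% of all genes). No member was called for a difference of the genotype effect between treatments (0% of all genes called, and no member at an unadjusted p under 0.05 in limma). The median of this difference over the 8 was 0.28 with all arrays. It was 1.10 without vehicle WT CDP array 1 and -0.39 without array 2, so that it too hinged on these arrays. In the lists Cx3cr1, the fractalkine receptor of monocytes and DC progenitors, was lower with GSI (-1.34, adjusted p = 0.0199), a call lost when any of 6 arrays was left out (adjusted p up to 0.0703).

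Over the 16 arrays Elane had rank 2 among all genes by SD, Mpo rank 4, Ms4a3 rank 9, Ctsg rank 14 and Prtn3 rank 28, whereas Cebpe had rank 425, Cebpa rank 3653 and Gfi1 rank 8198. The enzyme genes also moved together within groups. The deviations of arrays from their group means correlated between Mpo and Elane at 0.97, but most of this came from the vehicle WT CDPs. Over the other 7 groups the correlations among the 4 enzyme genes ranged from 0.04 (Elane and Prtn3) to 0.85 (Mpo and Elane). They describe 2 arrays a group and carry no test.

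Among 1125 genes with an SD of at least 0.5, the genes most like the mean of the 4 enzymes over the 16 arrays were Lbp (Pearson r = 0.97), which encodes the LPS-binding protein, Tuba4a (0.96), Gpr160 (0.95), Rab44 (0.94), Stk26 (0.94), Rasgrp2 (0.93), Acyp1 (0.93), Adgrl4 (0.93), Serpinf1 (0.93) and C1galt1c1 (0.92). Lbp read 4.66 to 9.19. The most opposite were Rftn1 (-0.96), Adam8 (-0.96), Tbc1d9 (-0.95), Jun (-0.95), the AP-1 subunit, and Il7r (-0.95), the interleukin-7 receptor. These values mainly carry the gap between stages, which all such genes share: ranking by deviations from group means kept 3 of the 10, and ranking by Spearman's rho kept 5. The genes nearest to Ms4a3 were Lbp (0.93), Hadh (0.91) and Acyp1 (0.91), and those nearest to Cebpa were Prg2 (0.92), Dhrs3 (0.91) and Fcnb (0.90). Nearest to Cebpe were Ppic (0.89), Pglyrp1 (0.89), a peptidoglycan recognition protein of neutrophil granules, and Cox6b2 (0.88). Nearest to Gfi1 were Myl10 (0.84), Nynrin (0.81) and Nkg7 (0.80), over a range of Gfi1 of less than 1 log2 unit.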

How the data were processed

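The authors hybridised amplified RNA of 16 sorted samples (0.69 to 20 ng) to Affymetrix Mouse Gene ST 1.0 arrays and deposited log2 signals of 28188 probe sets, obtained by RMA (submitters' notes name Affymetrix Expression Console, version 1.4.1). For the probe annotation, a genome build is not given in sources used here. By the platform annotation 21789 probe sets have 1 gene symbol, 1621 several and 4778 none. Probe sets with 1 symbol were used, the brightest for each of 19938 genes. All 8 group means were fitted in 1 model with limma 3.58.1 in R 4.3.3 (lmFit, eBayes, 8 residual degrees of freedom), and Benjamini-Hochberg adjustment ran over all 19938 genes, with a threshold of 0.05. Averaged comparisons weight the 4 strata equally. Percentages of all genes called are at an adjusted p under 0.05. For counts of members at an unadjusted p the share of all genes is not given. With 2 arrays per group the smallest exact permutation p is 0.333, so that no such test was run. The number of arrays limits the precision.

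Besides the 8 members and Ikzf1, up to 4 genes per list past the threshold were named by size of change, or otherwise the 2 with the highest mean signal; a few others, such as Eif2s3y, Kit and Csf1r, were named after their values were seen. Members and lists were chosen with earlier results of these data known. Promoters came from RefSeq (GRCm38.p6). Alternatives were a filter on dim genes, the replicate number as a block, quantile normalization, median centring, the mean over probe sets, trended or robust variance priors, fits on the compared groups alone, and leaving out each array.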

Additional observations from a re-analysis of the deposited data

How the results depend on the processing

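With 1 array left out, the number of called members stayed at 6 for stage, averaged. It ranged from 0 to 5 for stage in IkL/L cells with GSI, in IkL/L cells with DMSO and in WT cells with GSI, from 0 to 4 for stage in WT cells with DMSO, from 1 to 6 for genotype, averaged, from 0 to 4 for genotype in CDPs with DMSO, from 0 to 2 for GSI, averaged, and from 0 to 3 for the difference of the genotype effect between stages. The share of all genes called with 1 array left out is given above only for some fits, those without a vehicle WT CDP array. Whether these counts of members moved apart from the calls over all genes was not tested. The other alternatives kept 96 of 99 counts within 1.5 times. The exceptions were stage in WT cells with GSI, with 1 call under the filter on dim genes (10659 genes, all 8 members kept) and 2 under the trended prior, and GSI, averaged, with 1 call under the replicate block (Cebpa, -0.26, adjusted p = 0.05, over all its alternatives 0.05 to 0.286). The cause was not tested.

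Differences that changed sign were all of members not called, and they did so when 1 array was left out. For genotype, averaged, the ranges were -0.34 to 0.68 for Ms4a3 and -0.0145 to 0.0883 for Gfi1. For genotype in CDPs with DMSO they were -3.18 to 0.0791 for Prtn3, -2.97 to 1.11 for Ms4a3 and -0.0258 to 0.022 for Gfi1, which was also at 0.003 under quantile normalization. For genotype in CDPs with GSI they were -0.76 to 0.41 for Elane, -0.0194 to 1.397 for Ms4a3 and -0.11 to 0.10 for Gfi1. For GSI, averaged, they were -0.75 to 0.0612 for Prtn3, -0.88 to 0.14 for Ms4a3 and -0.22 to 0.0343 for Cebpe.

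The replicate numbers were not taken to pair the arrays, because the labels tie no number to a mouse. Of 28 pairs of groups, 17 deviated together with r above 0.1 (range -0.25 to 0.66). All 6 pairs of CDP groups (0.35 to 0.66) and all 6 pairs of WT groups (0.14 to 0.59) were among them. On array 2 of the IkL/L MDPs the Y-linked Eif2s3y read 3.33 with GSI and 7.04 with DMSO. On array 2 of the IkL/L CDPs it read 6.71 with GSI and 6.73 with DMSO. In the WT groups it was low on every array 2 (3.06 to 3.52). Whether arrays of a number share a mouse was not tested, and where they do the main fit counts them as independent. The replicate block took the number of called genes to 2210 against 1742 for stage, averaged, to 1612 against 1197 for genotype, averaged, and to 176 against 61 for GSI, averaged. With 2 arrays per group, differences in single strata had 95% intervals of up to 2 log2 units to either side for Mpo.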
